A study of Mus musculus with 14 samples.

Results

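Genes of 10 enzymes that remove superoxide and peroxides were followed through 14 mouse heart libraries. They were taken from a list of names, of 54532 Ensembl genes counted, and each name matched 1 gene. They are the superoxide dismutases *Sod1* and *Sod2*, catalase (*Cat*), the peroxiredoxins *Prdx3* and *Prdx5*, mitochondrial thioredoxin (*Txn2*), the glutathione peroxidases *Gpx1*, *Gpx3* and *Gpx4*, and cytosolic thioredoxin reductase (*Txnrd1*). All 10 passed the filter on low counts in both comparisons made below.

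The hearts came from C57BL/6 mice of post natal day 180 by the labels, whereas the study's methods give an older age. Of the libraries, 4 were labelled WT and 4 were labelled YG8-800, a line that carries a transgene on a homozygous null background. Another 3 female and 3 male libraries were labelled KIKO-700, a line with 1 deleted and 1 knocked-in allele, and the WT hearts of that cohort were not analysed here. The null allele of YG8-800 is constitutive, so that it is not limited to cardiomyocytes. Each library was read from the 3′ ends of polyadenylated transcripts with Lexogen QuantSeq, a method that gives about 1 read per transcript whatever its length, and held 5226233 to 11650840 counted reads.

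Superoxide is a by-product of electron transport in mitochondria, an organelle in which the heart is very rich. Superoxide dismutases turn it into hydrogen peroxide, which is then reduced to water by catalase, by glutathione peroxidases at the cost of glutathione, or by peroxiredoxins at the cost of thioredoxin. Thioredoxin reductases and NADPH return the thioredoxins to the reduced state. Glutathione peroxidases 1, 3 and 4 and thioredoxin reductase carry selenocysteine, an amino acid that is written in the mRNA as a UGA codon and so depends on a dedicated translation machinery and on the selenium supply.

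Among the 10 genes, 4 had this in-frame TGA in the coding sequence of GENCODE M21 on GRCm38, and the other 6 had none. The coding sequences around it are shown since they mark which enzymes form the selenium-dependent group, with the selenocysteine codon in capitals. It lay at chr9:108339451-108339453 in *Gpx1* (codon 47), at chr11:54907256-54907258 in *Gpx3* (codon 73), at chr10:80054737-80054739 in *Gpx4* (codon 73) and at chr10:82896037-82896039 in *Txnrd1* (codon 498), all on the plus strand. In *Txnrd1* the codon was followed by a single glycine codon and the stop.
Gpx1: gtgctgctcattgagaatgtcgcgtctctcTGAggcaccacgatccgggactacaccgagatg
Gpx3: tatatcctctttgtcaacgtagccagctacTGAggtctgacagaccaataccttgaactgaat
Gpx4: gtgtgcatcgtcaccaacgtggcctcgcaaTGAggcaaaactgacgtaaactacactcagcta
Txnrd1: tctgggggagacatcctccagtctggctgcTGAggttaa

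The *Gpx4* sequence has a near-identical copy in the genome, and this bears on every *Gpx4* value. *Gpx4-ps2*, a single-exon transcribed pseudogene at chr10:45875291-45876086 on the plus strand, aligned to the *Gpx4* transcript over 762 bases with 2 mismatches. The same stretch of the copy, at chr10:45875438-45875500, differs from the *Gpx4* stretch above at 1 of 63 positions, C18T counted from the first base shown, which is in capitals here.
Gpx4-ps2: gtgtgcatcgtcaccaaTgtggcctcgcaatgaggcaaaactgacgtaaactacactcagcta
In the last 500 bases, where 3′ reads fall, the copies differed by 1 base. In every library, 92.2% to 97.1% of the reads of the pair were counted at *Gpx4-ps2*. The counts were 14 to 211 at *Gpx4* and 472 to 2491 at the copy, so that the level of *Gpx4* alone cannot be taken as that of its mRNA, and the sum of both is given beside it below.

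The antioxidant response element, bound by NRF2, was searched as TGACNNNGC and as TGAGNNNGC on both strands of the 250 bases before each RefSeq gene start (GRCm38.p6), and a match to one cannot be a match to the other. Of the 10 genes, 3 had a match, each on the minus strand relative to the gene. Over all 32851 promoters, 10.2% held the first form, 14.4% the second and 23% either. The 10 genes had 15 promoters, so that their count by gene and these shares by promoter are not alike. The matches, in capitals on the gene's own strand, began 56 bases before the start of *Sod1* (chr16:90220706-90220714), 187 before that of *Txn2* (chr15:77929173-77929181) and 92 before one start of *Txnrd1* (chr10:82859114-82859122).
Sod1: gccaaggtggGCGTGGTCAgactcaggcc
Txn2: cttccttcccGCCCTCTCAcccatctcct
Txnrd1: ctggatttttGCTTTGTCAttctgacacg
No binding was measured in these hearts, and the matches are given as sequence only.

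Levels are given as CPM, the reads of a gene relative to all reads counted in its library, scaled by TMM factors over all 14 libraries. The samples were hearts in bulk, so that fewer cells of a type and less RNA per cell cannot be told apart. All 10 cardiomyocyte markers were detected in every group, with summed levels of 23040 to 44510 CPM. Genes of mitochondrial DNA took 28.89% to 44.64% of the reads, with the highest share in WT 3. The study states that males were used in the YG8-800 experiment, while *Xist* was above 10 CPM in 5 of its 8 libraries, 3 labelled WT and 2 labelled YG8-800. The KIKO-700 libraries followed their labelled sex in 6 of 6. The labels are therefore used here as names of libraries.

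**Figure D1:**
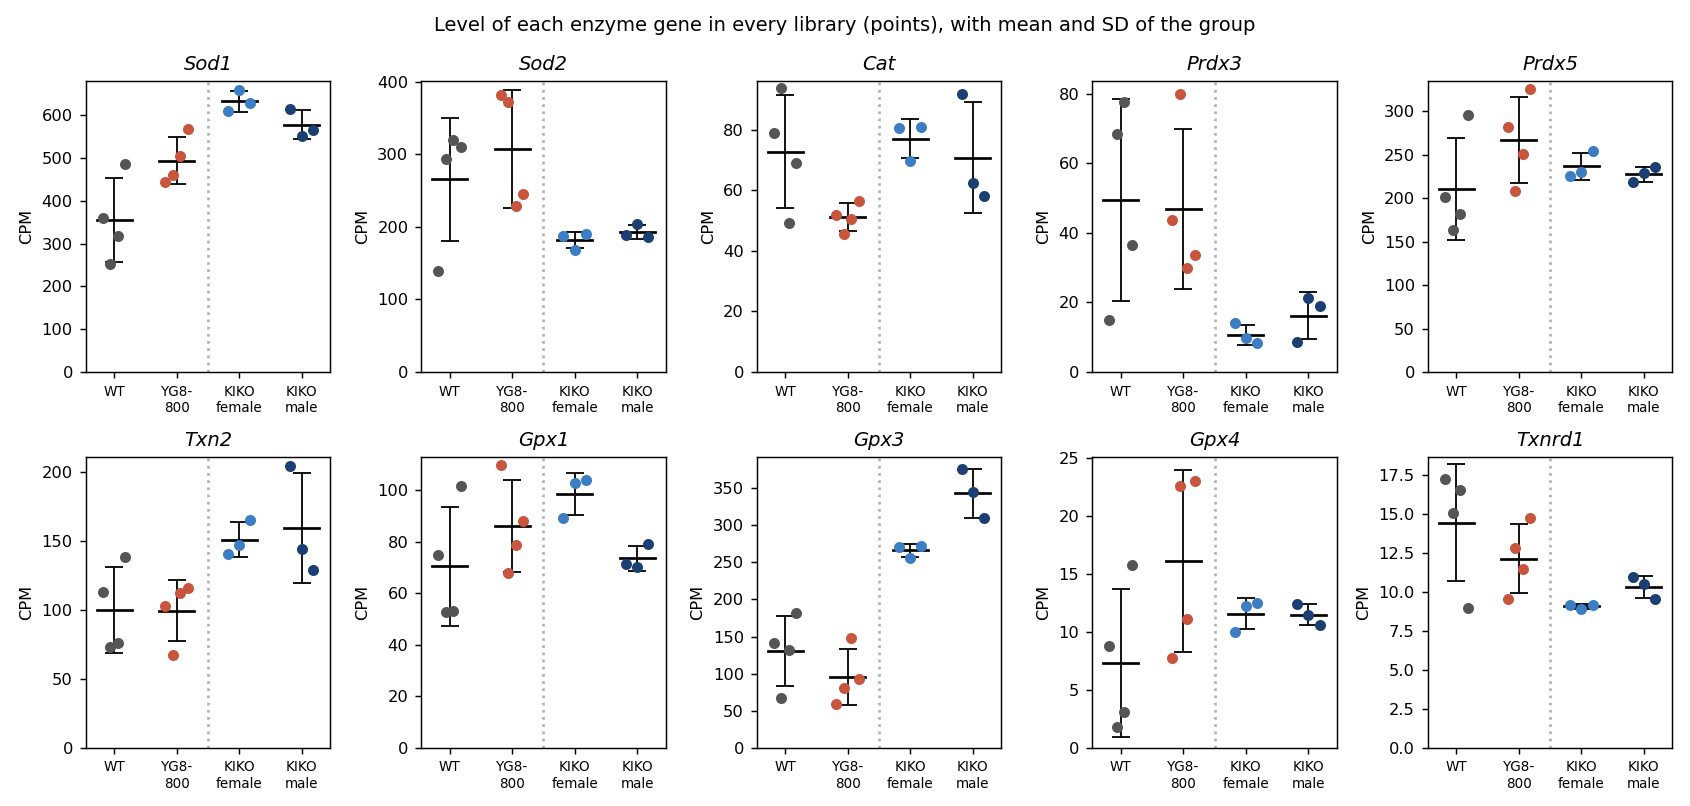
CPM of each of the 10 genes in the 4 groups, 1 point per library, with the mean (wide line) and SD (bars) of the group. The dotted line separates the YG8-800 experiment from the KIKO-700 libraries, which were not compared by a test; *Gpx3* lies at 256.1 to 375.9 CPM in the KIKO-700 libraries and at 59.13 to 181.7 CPM in the others.

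The first comparison asks whether the enzymes differ between hearts labelled YG8-800 and hearts labelled WT. None of the 10 genes passed the test, at an adjusted p of 0.05 or at an unadjusted one, with edgeR's quasi-likelihood test. Over all 11875 genes tested, 0% passed at the adjusted p and 718 genes, or 6.05%, at the unadjusted p. The groups overlapped for all 10 genes, while they did not overlap for 3.88% of all genes. Of the 10, 6 had a fitted log2 fold change above 0, YG8-800 minus WT by label, with a median of 0.13 against −0.01 over all genes. The largest values were those of *Gpx4* (log2 fold change 1.17, SE 0.65), *Sod1* (0.51, SE 0.27) and *Cat* (−0.47, SE 0.24), each with a 95% interval that held 0.

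*Sod1*, the copper and zinc dismutase of the cytosol and intermembrane space, was at 360.6, 252.5, 318 and 486.1 CPM in WT 1 to WT 4 and at 443.2, 461, 503.2 and 566.8 CPM in YG8-800 1 to 4. The groups overlapped through WT 4, and the other 3 libraries labelled WT lay below all 4 labelled YG8-800. The means were 354.3 ± 98.49 and 493.6 ± 54.93 CPM (SD, n = 4 each), with an interval of −0.08 to 1.09 on the log2 scale and an unadjusted p of 0.0843 (edgeR, adjusted p = 0.839). A 2-sided exact permutation test on log2 CPM gave p = 0.0857, where the smallest value that 4 against 4 can give is 0.0286. Without WT 4 the log2 fold change was 0.73 and the edgeR unadjusted p 0.0123. Without WT 2 these were 0.37 and 0.215, and without WT 2 and WT 3 together 0.25 and 0.417. In the libraries with *Xist* above 10 CPM they were 0.41 and 0.299.

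*Sod2*, the manganese dismutase of the mitochondrial matrix, did not move with *Sod1* among the libraries. Its level was 139.8, 293.7, 319.8 and 309.9 CPM in WT 1 to WT 4 and 381.7, 372.4, 228.1 and 245.2 CPM in YG8-800 1 to 4. WT 1 stood apart below the rest, and the libraries labelled YG8-800 formed a high and a low pair on either side of the other WT values. The log2 fold change was 0.23 (SE 0.32, 95% interval −0.45 to 0.91). The last 500 bases of its transcript share stretches of at least 95% identity with several other genes, so that reads from these stretches are uncertain. The same holds for stretches that *Txn2* shares with *Mbp* and *Gm13657*. *Sod1* has a processed pseudogene, *Gm8566*, with 98.4% identity over 428 bases, where 1 to 43 reads were counted per library.

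*Cat*, the heme enzyme that breaks down hydrogen peroxide in peroxisomes, was at 79, 93.74, 49.34 and 69.15 CPM in WT 1 to WT 4 and at 51.92, 45.67, 50.67 and 56.57 CPM in YG8-800 1 to 4. The other libraries labelled WT lay above all libraries labelled YG8-800, and WT 3 lay among the latter. Group means were 72.81 ± 18.62 and 51.21 ± 4.48 CPM (SD, n = 4 each). The 95% interval of the log2 fold change ran from −0.99 to 0.05 (edgeR, unadjusted p = 0.0727; exact permutation p = 0.114). Without WT 2 the log2 fold change of *Cat* was −0.33 with an edgeR unadjusted p of 0.217. With *Xist* as a covariate it was −0.38 with 0.164. Without WT 3 the log2 fold change of *Cat* was −0.62 with an edgeR unadjusted p of 0.0204, and with library size as the sole scaling it was −0.72 with 0.0338. That scaling also moved the median of all genes by −0.2.

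Within mitochondria, *Prdx3* and *Prdx5* reduce peroxide and *Txn2* supplies the electrons, and these genes did not share a pattern over libraries. *Prdx3* varied most of them, with 15.04, 68.45, 77.6 and 36.57 CPM in WT 1 to WT 4 and 43.8, 79.99, 29.81 and 33.75 CPM in YG8-800 1 to 4. The range within each group was wider than the difference of the means, 49.41 ± 28.89 and 46.84 ± 22.87 CPM (SD, n = 4 each), and the log2 fold change of −0.06 (SE 0.48) changed its sign under 4 alternative analyses and when single libraries were left out.

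*Prdx5* was at 201.3, 163, 181.5 and 295.5 CPM in WT 1 to WT 4 and at 281.6, 208, 251.4 and 326.1 CPM in YG8-800 1 to 4. WT 2 and WT 3 were again the lowest, WT 4 was second only to YG8-800 4, and the log2 fold change was 0.37 (SE 0.28, 95% interval −0.22 to 0.96). The exons of *Prdx5* share 409 bases with *Trmt112* on the opposite strand, which was at 5.308 to 27.1 CPM. *Txn2* was at 112.5, 72.68, 75.65 and 138 CPM in WT 1 to WT 4 and at 102.8, 67.03, 111.9 and 115.7 CPM in YG8-800 1 to 4. Its group means were 99.7 ± 31.3 and 99.36 ± 22.22 CPM (SD, n = 4 each), and its log2 fold change of 0.03 (SE 0.28, 95% interval −0.58 to 0.63) turned negative under 4 alternatives, library size alone and upper-quartile scaling among them.

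Of the selenium-dependent enzymes, *Gpx1*, the glutathione peroxidase of cytosol and mitochondria, was at 74.77, 52.65, 53.04 and 101.6 CPM in WT 1 to WT 4 and at 109.9, 67.77, 78.87 and 88.02 CPM in YG8-800 1 to 4. The groups overlapped widely, with a log2 fold change of 0.32 (SE 0.28, 95% interval −0.28 to 0.92). *Gpx3*, the secreted form of plasma, was at 141.3, 67.33, 131.9 and 181.7 CPM in WT 1 to WT 4 and at 59.13, 80.97, 147.6 and 93.27 CPM in YG8-800 1 to 4. Here the direction of the means was the opposite one, with a log2 fold change of −0.43 (SE 0.34, 95% interval −1.15 to 0.29). Leaving out WT 2 and WT 3 together, an alternative chosen after seeing the data, gave −0.74 for *Gpx3* with an edgeR unadjusted p of 0.046, and −0.002 for *Gpx1*.

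*Gpx4*, which reduces lipid peroxides in membranes and guards against ferroptosis, was at 8.79, 1.755, 3.043 and 15.78 CPM in WT 1 to WT 4 and at 7.718, 22.59, 11.16 and 23.04 CPM in YG8-800 1 to 4. The interval of its log2 fold change was the widest of the 10, −0.31 to 2.64 (edgeR, unadjusted p = 0.108). Without WT 4 the log2 fold change of *Gpx4* was 1.89 (edgeR, unadjusted p = 0.00604), without WT 2 and WT 3 together it was 0.43, and in the libraries with *Xist* above 10 CPM it was 0.17. With the reads of *Gpx4-ps2* added, the levels were 160.8, 58.96, 105.6 and 236.5 CPM in WT 1 to WT 4 and 112.4, 299.9, 238.5 and 295.1 CPM in YG8-800 1 to 4. WT 2 was lowest on either scale, and YG8-800 1 lay among the libraries labelled WT. On this sum the log2 fold change of *Gpx4* was 0.78 (edgeR, unadjusted p = 0.0838). *Txnrd1*, the selenoenzyme that reduces cytosolic thioredoxin, was at 17.26, 15.08, 16.52 and 8.994 CPM in WT 1 to WT 4 and at 9.522, 12.84, 11.46 and 14.74 CPM in YG8-800 1 to 4, with a log2 fold change of −0.21 (SE 0.27, 95% interval −0.79 to 0.37).

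Several libraries labelled WT stood apart from each other over these genes. WT 2 and WT 3 held the 2 lowest levels of *Sod1*, *Prdx5*, *Gpx1* and *Gpx4* of all 8 libraries, whereas WT 4 ranked 6 or 7 of 8 for these 4 genes. The summed cardiomyocyte markers were also lowest in WT 2 (23040 CPM) and WT 3 (27000 CPM) of the 8, against 39770 CPM in WT 1 and 42140 CPM in WT 4. Fibroblast markers summed to 1425 and 1453 CPM in WT 2 and WT 3, against 1002 and 880.1 CPM in WT 1 and WT 4. YG8-800 2 also had a low cardiomyocyte sum (28580 CPM) and the highest fibroblast sum of the 8 (1526 CPM). It ranked 5, 4, 3 and 7 of 8 for *Sod1*, *Prdx5*, *Gpx1* and *Gpx4*. The part of either marker sum in the enzyme levels was not tested. WT 2 and WT 3 ranked 6 and 7 of 8 for both *Prdx3* and *Txnrd1*. The median coefficient of variation of the 10 genes was 31.63% over the libraries labelled WT and 21.56% over those labelled YG8-800, close to the medians of 31.27% and 21.42% over the 7533 genes with a mean of at least 5 CPM. Without WT 4, 4 of the 10 genes passed at the unadjusted p (*Sod1*, *Prdx5*, *Gpx1* and *Gpx4*), and 1695 of all genes did in place of 718.

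**Figure D2:**
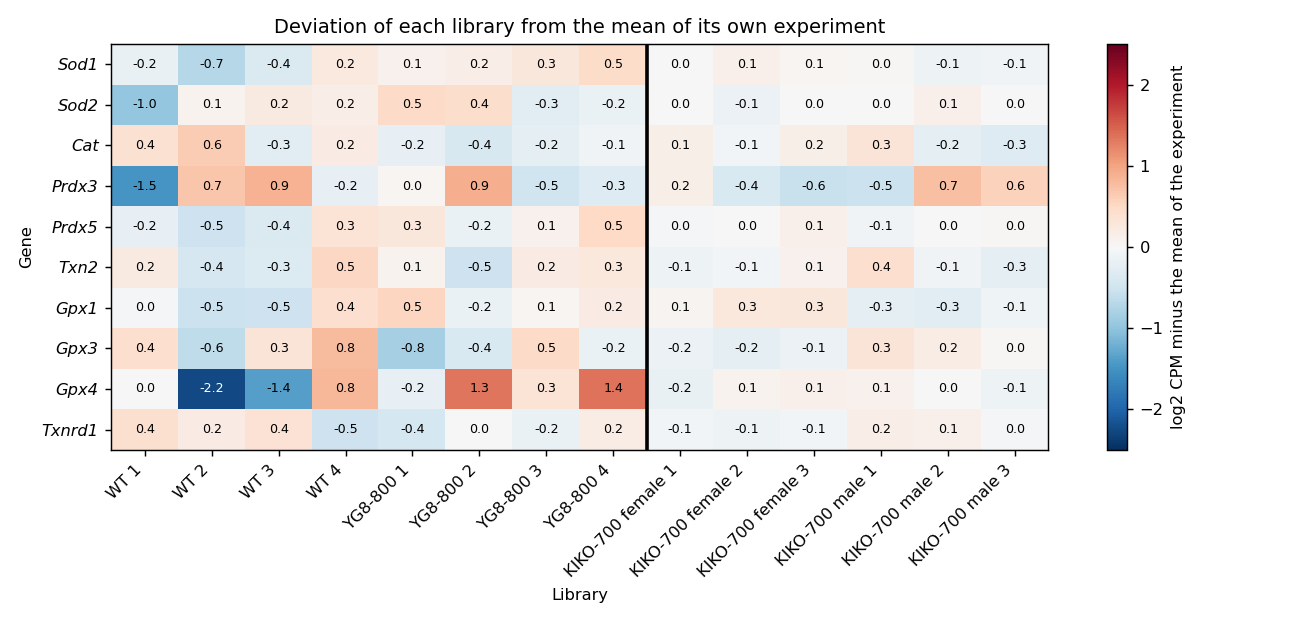
Log2 CPM of each gene in each library minus the mean of its own experiment, with the value in each cell; red is above and blue below the mean, and the black line separates the 2 experiments. *Gpx4* runs from −2.25 in WT 2 to 1.36 in YG8-800 4 and *Prdx3* from −1.48 in WT 1, while most KIKO-700 cells lie close to 0.

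The second comparison, between the sexes, was made within KIKO-700. Of the 10 genes, 2 passed at the unadjusted p, against 7.14% of all 11801 genes tested, and none passed at the adjusted p, which 0.0678% of all genes did. *Gpx1* fell and *Gpx3* rose in males at the unadjusted p. For 3 of the 10 genes the groups did not overlap (*Gpx1*, *Gpx3* and *Txnrd1*), against 12.6% of all genes. The median log2 fold change of the 10 was 0.02, beside 0.01 over all genes, and 5 of the 10 were higher in males.

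*Gpx1* was at 89.35, 102.9 and 103.8 CPM in the females and at 71.33, 70.37 and 79.2 CPM in the males. All 3 males lay below all 3 females, with means of 98.67 ± 8.086 and 73.63 ± 4.843 CPM (SD, n = 3 each). The log2 fold change of *Gpx1*, males minus females, was −0.43 (SE 0.15, 95% interval −0.75 to −0.11; edgeR, unadjusted p = 0.0129, adjusted p = 0.591). The exact permutation test gave p = 0.1, the smallest value that 3 against 3 can give. Without female 2 or female 3 the unadjusted p of *Gpx1* became 0.0571 and 0.057.

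*Gpx3* was at 271, 256.1 and 272.3 CPM in the females and at 375.9, 344.7 and 309.5 CPM in the males. Here all 3 males lay above all 3 females, with means of 266.5 ± 8.996 and 343.4 ± 33.23 CPM (SD, n = 3 each). The log2 fold change of *Gpx3* was 0.36 (SE 0.15, 95% interval 0.04 to 0.68; edgeR, unadjusted p = 0.0298, adjusted p = 0.65; exact permutation p = 0.1). Leaving out female 1, female 2 or female 3 gave unadjusted p values of 0.0667, 0.106 and 0.073 for *Gpx3*, and library size alone gave 0.069. Both genes are selenium-dependent glutathione peroxidases, and they went in opposite directions.

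The third selenium-dependent peroxidase did not follow either. *Gpx4* was at 10.02, 12.21 and 12.48 CPM in the females and at 12.39, 11.44 and 10.59 CPM in the males, and its sum with *Gpx4-ps2* was 191.1 ± 7.344 and 201.4 ± 5.173 CPM (SD, n = 3 each). The log2 fold change was −0.02 for *Gpx4* (SE 0.17, 95% interval −0.4 to 0.36) and 0.07 for the sum. *Txnrd1* was at 9.185, 8.882 and 9.166 CPM in the females and at 10.95, 10.52 and 9.56 CPM in the males. The sexes did not overlap for *Txnrd1*, but the log2 fold change of 0.18 (SE 0.17, 95% interval −0.19 to 0.55) had an unadjusted p of 0.317 (edgeR), and its exact permutation p of 0.1 became 0.4 with library size alone.

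**Figure D3:**
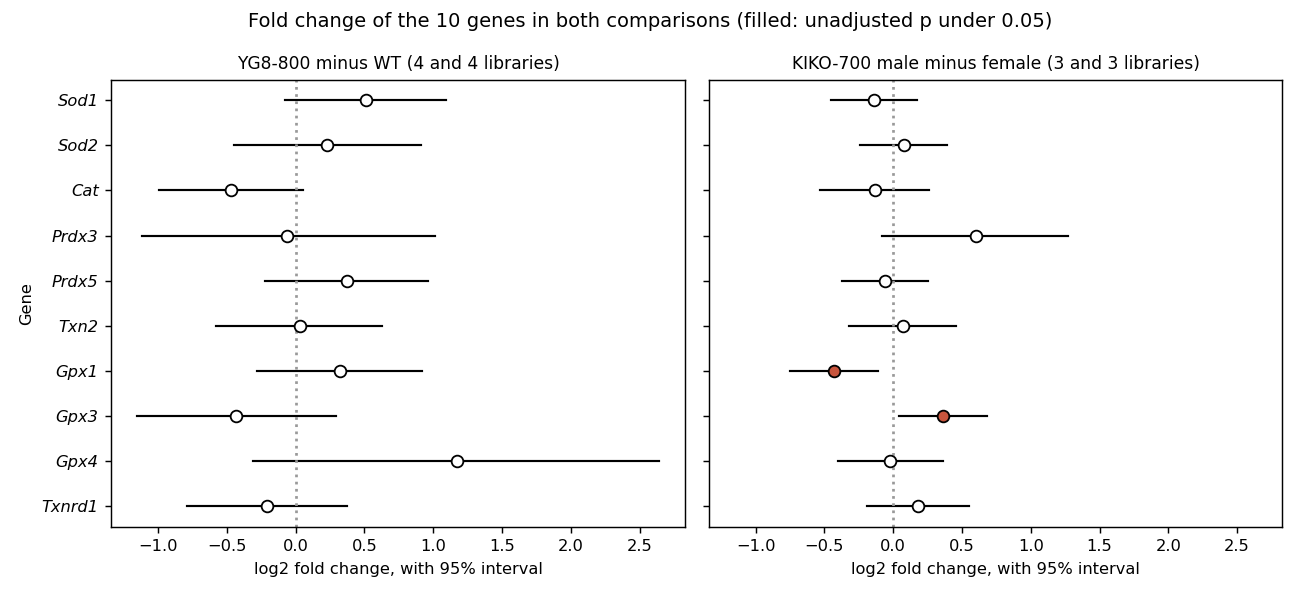
Log2 fold change of each gene with its 95% interval, for libraries labelled YG8-800 minus WT (left) and KIKO-700 males minus females (right), by edgeR. Filled points passed at the unadjusted p of 0.05, which only *Gpx1* (−0.43) and *Gpx3* (0.36) did, both in KIKO-700 and neither at the adjusted p.

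Neither the dismutases nor catalase passed the test between the sexes of KIKO-700. *Sod1* was at 608.3, 659 and 627.4 CPM in the females and at 615.2, 550.6 and 565.3 CPM in the males, a log2 fold change of −0.14 (SE 0.14, 95% interval −0.45 to 0.17). *Sod2* was at 187.5, 168.6 and 189.6 CPM in the females and at 188.4, 203.5 and 186.3 CPM in the males (0.08, SE 0.14, interval −0.24 to 0.39). The levels of *Cat* were 80.64, 69.61 and 81.09 CPM in the females and 91.78, 62.35 and 58.2 CPM in the males. Male 1 was the highest of all 6 for *Cat* and the other 2 males were the lowest, so that the log2 fold change of −0.13 (SE 0.18) became −0.36 without male 1, with an edgeR unadjusted p of 0.0112.

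Of the mitochondrial peroxiredoxin system, *Prdx3* was at 13.96, 9.659 and 8.402 CPM in the females and at 8.54, 21.18 and 18.93 CPM in the males. Male 1 lay with the females and the other 2 males above all of them. The log2 fold change of *Prdx3* was 0.6 (SE 0.31, 95% interval −0.08 to 1.27; edgeR, unadjusted p = 0.0776), which became 0.9 without male 1 (unadjusted p = 3.72e-05) and 0.84 without female 1 (0.0352). With no filter on low counts it was 0.61 with an unadjusted p of 0.00249. *Prdx5* was at 225.2, 230.1 and 254.5 CPM in the females and at 218.2, 229.1 and 235.4 CPM in the males. *Txn2* was at 140.3, 146.7 and 164.9 CPM in the females and at 204, 144 and 128.6 CPM in the males, where male 1 was again the highest of the 6. The log2 fold changes were −0.06 for *Prdx5* (SE 0.14, 95% interval −0.37 to 0.25) and 0.07 for *Txn2* (SE 0.18, 95% interval −0.32 to 0.46), the latter −0.15 without male 1. Without male 1, 4 of the 10 genes and 2610 of all genes tested passed at the unadjusted p, in place of 2 and 843.

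Side by side, the 4 groups had different orders of level for different enzymes. The KIKO-700 hearts and the others were separate cohorts, and their age by the labels was the same, so that cohort and line cannot be told apart and no test was made. *Gpx3* was highest in KIKO-700 males, then in KIKO-700 females, WT and YG8-800 by label, and the 6 KIKO-700 libraries lay above all 8 others, with a ratio of means of 2.701. It was the only 1 of the 10 genes whose experiments did not overlap, against 11% of all 13023 genes that passed the filter over the 14 libraries. *Prdx3* had the reverse order by experiment, with a ratio of 0.2794, although WT 1 at 15.04 CPM lay among the KIKO-700 libraries. *Txn2* (ratio 1.555), *Sod1* (1.425), *Cat* (1.192) and *Gpx1* (1.1) had higher means in KIKO-700, and *Txnrd1* (0.73) and *Sod2* (0.6542) had lower means. *Prdx5* (0.9729) and *Gpx4* (0.9819) had ratios close to 1.

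Neighbours in these orders mostly overlapped. Groups adjacent in order did not overlap for *Gpx3* between KIKO-700 males and females and between KIKO-700 females and WT, for *Prdx3* between YG8-800 and KIKO-700 males, for *Txn2* between KIKO-700 females and WT, for *Cat* between KIKO-700 males and YG8-800, and for *Txnrd1* between the KIKO-700 sexes. All other neighbours overlapped. Of all genes, 27.6% did not overlap between KIKO-700 females and WT and 35% between KIKO-700 males and YG8-800. Those shares hold for any order of the groups. On that count *Sod1* (from 608.3 against up to 486.1 CPM) and *Prdx3* (up to 13.96 against from 15.04) were also apart between KIKO-700 females and WT. Between KIKO-700 males and YG8-800, *Sod2* (up to 203.5 against from 228.1 CPM) and *Txn2* (from 128.6 against up to 115.7) were also apart. *Gpx3* was too (from 309.5 against up to 147.6). For each pair, the genes of the 10 not named here overlapped. Within KIKO-700 the median coefficient of variation of the 10 genes was 7.408% in females and 7.354% in males, against 10.56% and 17.59% over the 7533 genes. In males *Cat* (25.87%) and *Txn2* (25.08%) lay above that median of all genes. *Prdx3* was the most variable of the 10 in both sexes (27.29% and 41.57%).

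**Figure D4:**
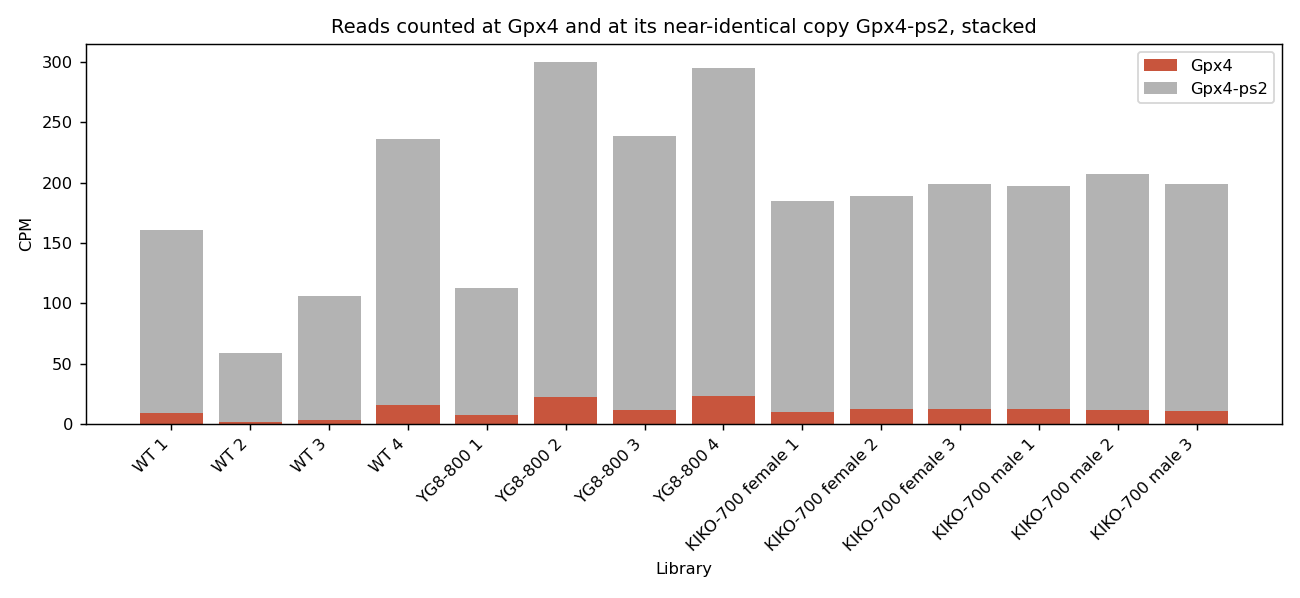
CPM counted at *Gpx4* (red) and at its near-identical copy *Gpx4-ps2* (grey), stacked, in each of the 14 libraries. The copy holds 92.2% to 97.1% of the reads of the pair, and the sum runs from 58.96 CPM in WT 2 to 299.9 CPM in YG8-800 2.

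The wider pathway was read through 5 lists, whose median log2 fold changes ran from −0.12 to 0.21 in the first comparison and from −0.12 to 0.09 in the second. Among 22 other superoxide and peroxide enzymes, 18 were tested in each comparison and 0 passed at the unadjusted p by edgeR. The smallest p values were those of *Glrx*, glutaredoxin, at 12.09 ± 1.828 CPM in WT and 17.17 ± 5.098 CPM in YG8-800 (SD, n = 4 each; edgeR, unadjusted p = 0.0631), and, in KIKO-700, of *Prdx1*, the cytosolic peroxiredoxin, at 185.9 ± 14.31 CPM in females and 144.4 ± 35.09 CPM in males (SD, n = 3 each; edgeR, unadjusted p = 0.0557). Of 21 genes that supply glutathione, NADPH and selenocysteine, 19 and 17 were tested and 0 passed. Here *Me1*, cytosolic malic enzyme, was at 56.39 ± 19.62 CPM in WT and 38.5 ± 4.896 CPM in YG8-800 (SD, n = 4 each; edgeR, unadjusted p = 0.0898), and *Me3*, a mitochondrial malic enzyme, at 10.55 to 13 CPM in KIKO-700 females and 13.68 to 16.72 CPM in males (edgeR, unadjusted p = 0.0732).

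Single genes of the other lists passed at the unadjusted p, at counts that are to be read against the 6.05% and 7.14% of all genes that did so in the 2 comparisons, and none passed at the adjusted p. Of 10 regulators of thioredoxin and NRF2, all tested, 1 fell in YG8-800 by label and none passed in KIKO-700. It was *Foxo3*, a transcription factor known to act on *Sod2* and *Cat*, at 24.67 ± 6.777 CPM in WT and 15.91 ± 2.806 CPM in YG8-800 (SD, n = 4 each; log2 fold change −0.59, edgeR, unadjusted p = 0.0363, adjusted p = 0.814). Leaving out any of WT 1, WT 2, YG8-800 1, YG8-800 2 and YG8-800 3 ended that call for *Foxo3*, with unadjusted p values up to 0.125, and so did keeping the libraries with *Xist* above 10 CPM alone (0.0614). Of 9 genes that repair oxidized methionine or lipid peroxides, 1 fell, *Aifm2*, a membrane reductase that limits lipid peroxidation beside *Gpx4*. It was at 9.472 ± 1.449 CPM in WT and 5.761 ± 1.563 CPM in YG8-800 (SD, n = 4 each; log2 fold change −0.68, edgeR, unadjusted p = 0.0302), and lost the call without WT 1, YG8-800 1 or YG8-800 2, without WT 2 and WT 3 together (unadjusted p = 0.0796 by edgeR) and in the libraries with *Xist* above 10 CPM (0.0882).

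In KIKO-700 males the same 9 repair genes held 1 that fell, *Gstp1*, a glutathione transferase (60 ± 6.151 CPM in females and 40.82 ± 14.24 in males, SD, n = 3 each; log2 fold change −0.56, edgeR, unadjusted p = 0.0195), and 1 that rose, *Aldh2*, the mitochondrial aldehyde dehydrogenase (211.4 ± 5.043 and 285.1 ± 55.19 CPM; 0.42, edgeR, unadjusted p = 0.0246). Among 13 sources of superoxide and peroxide, 8 were tested in each comparison. None passed between the labels of the YG8-800 experiment, where *Maob*, a monoamine oxidase, had the smallest p (edgeR, unadjusted p = 0.25). In KIKO-700 males *Cyba*, a subunit of NADPH oxidases, fell from 14.63 ± 0.3399 to 10.83 ± 1.08 CPM (SD, n = 3 each; log2 fold change −0.44, edgeR, unadjusted p = 0.0191). These 3 calls were each lost when any of several libraries was left out, which also leaves fewer libraries to test with. That of *Gstp1* was lost without female 2, female 3, male 2 or male 3 (unadjusted p up to 0.0974), that of *Aldh2* without any 1 of the females or male 2 (up to 0.0752), and that of *Cyba* without female 3, male 2 or male 3 (up to 0.0701) and with DESeq2 (0.0554).

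Some markers of other cell types passed at the unadjusted p in each comparison, beside 6.05% and 7.14% of all genes. Between the libraries labelled YG8-800 and WT none passed at the adjusted p, and no atrial, erythroid or hepatocyte marker at the unadjusted one. Of 8 adipocyte markers, 6 were tested, and 4 fell in YG8-800 by label and 5 in KIKO-700 males at the unadjusted p, 2 of the latter also at the adjusted p. Their summed level was 18.48 to 276.6 CPM in WT and 41.35 to 67.27 CPM in YG8-800, and 122.9 to 141.6 CPM in KIKO-700 females and 68.89 to 84.8 CPM in males. *Lep*, which was not tested, was at 0 in all 4 libraries labelled YG8-800 and near the floor in WT, at 0.2174 to 0.7413 CPM. No erythroid, atrial or macrophage marker was at 0 throughout a group. *Gpx3* was higher in those males and *Gpx1* lower. Of 8 macrophage markers, 2 fell in YG8-800 by label, and in KIKO-700 males 2 fell and 1 rose, with *Lyz2*, the most abundant, at 279 ± 24.22 CPM in females and 195.9 ± 51.8 CPM in males (SD, n = 3 each). The summed level of 7 erythroid markers, a sign of blood, was 1306 to 5754 CPM in the YG8-800 experiment and 13510 to 19460 CPM in KIKO-700, and that of 8 atrial markers was 306.3 to 1706 and 2160 to 2905 CPM. Both sums separate the experiments as *Gpx3* does. Among the atrial markers, *Nppa*, *Clu*, *Bmp10* and *Dkk3* were also higher in every KIKO-700 library than in the others. *Myl7*, *Sln*, *Myl4* and *Nr2f2* overlapped between the experiments. *Myl7* reached 406.6 CPM in WT and began at 329.6 CPM in KIKO-700 males. The fibroblast sum separated them in the other direction, at 880.1 to 1526 CPM in the YG8-800 experiment and 482.8 to 783.1 CPM in KIKO-700. Most of it was *Dcn*, with means of 923 CPM in WT, 898.1 in YG8-800, 486.5 in KIKO-700 females and 481.1 in males. *Col3a1* and *Pdgfra* were also lower in every KIKO-700 library, whereas *Col1a1*, *Col1a2*, *Lum*, *Tcf21* and *Postn* overlapped between the experiments. Of 7 hepatocyte markers, 3 were tested in KIKO-700, and 2 of them fell in males also at the adjusted p. These were *Alb*, at 5.329 to 11.46 CPM in females and 0.1203 to 0.8435 CPM in males (edgeR, adjusted p = 0.00621), and *Fgb*, at 1.443 to 1.91 and 0 to 0.1203 CPM (edgeR, adjusted p = 0.0322), both named after their values were seen. The hepatocyte sum was 13.6 to 32.34 CPM in females and below 3 CPM in males 1 and 3, whereas *Ttr* gave most of the 404.7 CPM in male 2. The part of any of these in the enzyme levels was not tested.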

How the data were processed

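Hearts of 14 mice were read as QuantSeq 3′ libraries. The authors deposited raw counts per Ensembl gene, as whole numbers and without normalization. For these counts the notes of the submitters list STAR (2.5.0a), HTSeq (0.6.1) and the build GRCm38.p6, whereas the study's methods name Rsubread and featureCounts with stranded assignment, and which of them applies was not settled. Of the identifiers, 54495 (99.9%) had a symbol in GENCODE M21 and 37 had none. No 2 libraries were duplicates. The labels give the replicates as separate samples, and the study's methods count them as animals, so that p values measure the spread between these samples.

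Each experiment was fitted apart in R 4.3.3. Lowly counted genes were dropped by filterByExpr, TMM gave the scaling, and groups were compared by the quasi-likelihood test (robust) in edgeR 4.0.16. P values were adjusted over all genes tested after Benjamini and Hochberg, at a threshold of 0.05. Fold changes came from each experiment's own fit, and printed CPM from TMM factors over all 14 libraries. Log2 CPM used a prior count of 2. Levels of single genes were also compared by 2-sided exact permutation. Near-identical copies were sought in the last 500 bases of each transcript, at 95% identity over 86 bases. Besides the copies described above, a further *Gpx4* pseudogene, *AC122253.3*, matched at 96.2% over 318 bases. The tests were tried on simulated data first. Counting error limits *Gpx4*, *Txnrd1* and *Prdx3* most, which held as few as 14, 61 and 66 reads in a library.

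The genes and lists were chosen with earlier results of these data known. All 10 genes are named. Of each wider list, up to 4 genes past the unadjusted p are named, or up to 2 with the smallest p where none passed. For cell types, the summed level and at most the most abundant marker are given. *Lep*, *Alb*, *Fgb* and further atrial and fibroblast markers were named outside this rule. The marker lists of fibroblasts, endothelium, mural cells and skeletal muscle held 1, 0, 0 and 0 genes past the unadjusted p between the libraries labelled YG8-800 and WT, and 1, 1, 0 and 2 between the KIKO-700 sexes. No result that needs a withheld item is given.

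Alternative analyses changed 1 choice at a time. They were scaling by RLE, by upper quartile or by library size alone, filtering by 10 counts in every library or not at all, testing with DESeq2 1.42.0 or with voom or trend in limma 3.58.1, the replicate number as a block, and 1 fit over all 4 groups. Others left out mitochondrial DNA and Gm-named genes, added a named pseudogene to its parent, used *Xist* as a covariate or kept the libraries with *Xist* above 10 CPM alone, and left out each library in turn. The removal of WT 2 and WT 3 together and the addition of all near-identical pseudogenes were chosen after seeing the data.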

Additional observations from a re-analysis of the deposited data

Results flagged for a closer look

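A single value stood apart in its group. *Sod2* was at 139.8 CPM in WT 1, while the other 3 libraries labelled WT lay at 293.7 to 319.8 CPM, a gap of 0.855 of the range of the group. WT 1 was also the lowest of the 8 libraries for *Prdx3*. In all, 20 groups of 4 libraries were examined in this way, and chance alone flags about 1 in 20.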

How the results depend on the processing

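Of 240 alternative values of the 10 genes between the libraries labelled YG8-800 and WT, 210 kept their direction and their side of the unadjusted threshold, 13 came to pass it and 17 turned their direction. Of 190 such values between the KIKO-700 sexes, 171 kept both, 4 came to pass, 9 no longer passed and 6 turned. Between the libraries labelled YG8-800 and WT, where 0 of the 10 passed, 1 passed with library size alone (*Cat*), with no filter, DESeq2 and limma-voom (*Gpx4* in each), and without WT 2 and WT 3 (*Gpx3*). In 1 fit over all 4 groups 3 passed (*Sod1*, *Cat* and *Gpx4*), and with 1 library left out 0 to 4 did. The number of all genes at the adjusted p, 0, became 107 with no filter, 7 with DESeq2 and 1 in the fit over all groups, and 0 to 146 with 1 library left out, the highest without WT 4. At the unadjusted p, 718 of 11875 genes tested became 1727 of 24532 with no filter and 1438 of 13023 in the fit over all groups. In the libraries with *Xist* above 10 CPM it was 282 of 12527.

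Between the KIKO-700 sexes, where 2 of the 10 passed, 1 did with library size alone and with the replicate block, 0 in the fit over all groups, 3 with no filter (*Prdx3* added), and 0 to 4 with 1 library left out. The 8 genes at the adjusted p became 105 with no filter, 2 with at least 10 counts in every library, 18 with DESeq2 and 0 in the fit over all groups, and 4 to 864 with 1 library left out, the highest without male 1. At the unadjusted p, 843 of 11801 genes tested became 1475 of 23238 with no filter and 186 of 13023 in the fit over all groups. Without male 2, female 2 and male 1 it was 460 of 12208, 502 of 12107 and 2610 of 12245. The cause of these shifts was not tested.

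The log2 fold change of *Prdx3* between the libraries labelled YG8-800 and WT became 0.11 with limma-voom, 0.10 with limma-trend, 0.10 with the replicate block and 0.89 without WT 2 and WT 3. That of *Txn2* became −0.012 with upper-quartile factors, −0.19 with library size alone, −0.005 in the fit over all groups and −0.30 without WT 2 and WT 3, and that of *Gpx1* −0.002 in the last. In KIKO-700, *Gpx4* turned to 0.068 with pseudogenes added, under both ways of choosing them. With 1 library left out, *Prdx3* ran from −0.44 to 0.25 and *Txn2* from −0.10 to 0.25 between the libraries labelled YG8-800 and WT, and *Txn2* from −0.15 to 0.20 and *Gpx4* from −0.11 to 0.035 between the KIKO-700 sexes.

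Replicate numbers did not pair libraries: deviations from the group mean of libraries with the same number correlated at −0.23, 0.25, −0.03 and 0.13 in the YG8-800 experiment and at −0.16, −0.04 and −0.19 in KIKO-700. With the number as a replicate block, *Gpx3* (edgeR, unadjusted p = 0.0797) and *Aldh2* (0.0583) lost their calls in KIKO-700 and *Foxo3* (0.0686) its call in the YG8-800 experiment, and the genes at the unadjusted p became 867 and 628. The 14 reads of *Gpx4* in WT 3 were the fewest of any of the 10 genes. In that library 472 reads, 97.1% of the pair, were counted at *Gpx4-ps2*.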
